A study of Mus musculus with 4 samples.

Results

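A small part of the colonic epithelial methylome held levels near the middle of the scale in every library. Members of this set were autosomal bins of 200 bp holding 4 or more CpGs and, in each of 4 libraries, 40 or more calls, chosen by their methylation level, which had to lie from 40 to 60% in all 4. Of 1499159 autosomal bins with at least 4 CpGs, 1198271 had enough calls and no more than 1000 calls in any library (eligible bins), and 14872 of these, or 1.24%, were members. Merging adjacent members gave 14502 runs, of which 14157 were a single bin, 324 had 2 bins, 18 had 3, 2 had 4 and 1 had 5. Levels of the members are therefore given as a description, and nothing is drawn from tests on them.

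The libraries came from colon of mice labelled as strain C57. They were offspring of the Lgr5-EGFP-CreER knock-in line (on a C57BL/6 J background, per the methods) and wild-type C57 mice. The knock-in puts EGFP under control of the stem cell gene Lgr5. The paper describes mosaic expression in this line, with some crypts negative for EGFP. Cells without EGFP can therefore include stem cells, and their share was not tested. Intestinal stem cells (ISCs) were sorted as EGFP-positive, and their differentiated progeny as positive for the epithelial protein EpCAM and negative for EGFP, each at birth (P0) and at the end of suckling (P21). Each of the 4 groups had 1 library of whole-genome bisulfite sequencing, made from DNA pooled over litters at P0 and over EGFP-positive offspring at P21, so variation between animals was not measured. Values are given below for P0 first and then P21, with ISCs before differentiated cells at each age. Wilson 95% intervals treat calls or bins as independent and leave out variation between animals. PCR reads without molecular identifiers are not independent molecules, and bins of a locus can vary together. The intervals can therefore be too narrow even for counting error.

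Most mammalian CpGs are methylated in nearly all copies, and most CpG islands (CGIs) in nearly none, so levels in between are uncommon. The best known class is genomic imprinting, in which gametic differentially methylated regions (gametic DMRs) receive methylation in the egg or the sperm and keep it on that parental chromosome in the cells of the body, with the KRAB zinc finger protein ZFP57 binding a methylated TGCCGC motif there. A level near 50% can also come from a mixture of cells or from molecules that are each methylated in part, and counts of calls per CpG from inbred mice do not separate parental copies or single molecules.

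Sequences of 6 member bins are shown to let the eye compare imprinted loci with other members. The first 4 lie in windows of imprinted genes and the last pair outside every such window. Each is the forward strand of the mm9 (NCBIM37) reference, 5' to 3', with each CpG in capitals.
Trappc9 intron 16, chr15:72640001-72640200: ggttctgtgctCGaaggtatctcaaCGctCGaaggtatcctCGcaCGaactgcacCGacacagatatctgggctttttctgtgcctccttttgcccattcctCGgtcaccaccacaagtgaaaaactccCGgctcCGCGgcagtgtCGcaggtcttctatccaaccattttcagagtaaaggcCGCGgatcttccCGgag
Igf2r intron 2 and Airn, chr17:12935401-12935600: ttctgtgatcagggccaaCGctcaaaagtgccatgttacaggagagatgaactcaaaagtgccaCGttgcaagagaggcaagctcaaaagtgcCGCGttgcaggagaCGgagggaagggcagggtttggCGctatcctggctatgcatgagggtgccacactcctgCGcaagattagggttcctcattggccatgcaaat
upstream of H19, chr7:149767601-149767800: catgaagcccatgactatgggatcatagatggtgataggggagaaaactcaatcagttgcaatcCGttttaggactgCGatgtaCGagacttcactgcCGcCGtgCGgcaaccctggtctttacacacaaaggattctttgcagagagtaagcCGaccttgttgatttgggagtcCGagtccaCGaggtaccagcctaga
upstream of Rasgrf1, chr9:89776401-89776600: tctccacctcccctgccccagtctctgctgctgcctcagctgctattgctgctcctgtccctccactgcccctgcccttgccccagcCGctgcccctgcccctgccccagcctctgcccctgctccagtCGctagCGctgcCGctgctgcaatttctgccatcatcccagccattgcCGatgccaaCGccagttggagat
Col8a2 intron 1, chr4:125965401-125965600: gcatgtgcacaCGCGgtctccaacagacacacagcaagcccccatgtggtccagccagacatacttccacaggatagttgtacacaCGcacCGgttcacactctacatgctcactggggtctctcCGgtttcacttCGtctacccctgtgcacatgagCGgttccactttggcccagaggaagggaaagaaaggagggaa
Sarm1 exon 5 and intron 4, chr11:78300801-78301000: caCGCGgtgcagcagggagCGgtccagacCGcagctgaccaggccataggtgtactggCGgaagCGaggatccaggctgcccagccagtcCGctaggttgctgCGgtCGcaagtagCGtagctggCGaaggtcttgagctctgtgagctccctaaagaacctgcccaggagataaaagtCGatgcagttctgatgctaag
The Trappc9 bin has 14 CpGs, and its single CpGs ranged from 40.7 to 55.1% when calls were summed over the libraries. In the Igf2r bin with 7 CpGs the range was 48.0 to 52.7%, and in the H19 bin with 9 CpGs it was 40.2 to 51.5%. Outside imprinted windows the Col8a2 bin, with 7 CpGs, held CpGs from 33.0 to 66.2%, and the Sarm1 bin, with 12 CpGs and a level also near 50%, from 6.25 to 78.5%. TGCCGC, read on either strand, occurred 1 time in the Trappc9 bin, 1 time in the Igf2r bin, 2 times in the H19 bin and 1 time in the Rasgrf1 bin, and in neither the Col8a2 nor the Sarm1 bin. The bins shown are not typical in this. Of the 16 distinct longest runs at gametic DMR genes 8 held a bin with the motif, and of the 10 longest runs outside imprinted windows 2 did, near Hs1bp3 and in Gja4.

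Depth of the 4 libraries was alike in total, from 1023427645 to 1188114423 calls over all chromosomes. Of these calls 50.5 to 63.7% fell at single positions with over 1000 calls. None of those positions entered the eligible bins, which are autosomal and hold at most 1000 calls in any library. Median calls in eligible bins were 110, 195, 117 and 158, and in members 113, 203, 119 and 164. Per CpG, members had 22.3, 40.6, 23.6 and 32.7 calls against 20.8, 37.3, 22.3 and 30.2 in eligible bins, so members were slightly deeper in every library. Calls were unevenly split between strands, with a median of 80.8% on the deeper strand in members and 77.4% in all eligible bins. Promoters of 10 epithelial marker genes, read within 500 bp of the gene start, had median levels of 1.43, 1.69, 0.859 and 0.685%, with Epcam at no more than 0.480% and Krt20 at 50.1 to 56.9%. The 12 stem cell markers had medians of 0.584 to 0.964%, the 12 immune markers 75.2 to 79.0% and the 10 stromal and endothelial markers 26.1 to 36.1%. Genes within a list differed, with Olfm4 of the stem cell list at 9.85 to 27.8% and Coro1a of the immune list at 10.3 to 11.4%. In the stromal and endothelial list Vim, Pdgfra, Kdr and Col1a2 were at no more than 3.02%. Pecam1 and Cdh5 were at 51.4 to 70.7%, and Col1a1, Col3a1, Pdgfrb and Acta2 at 22.0 to 60.7%. These are methylation levels and not expression, and the share of other cell types in the sorted DNA was not tested.

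In a single library, 5.71, 5.66, 5.3 and 5.42% of eligible bins lay from 40 to 60%. Of the bins in that range in a given library, 21.8, 21.9, 23.4 and 22.9% were there in all 4. Another 24542 bins, or 2.05% of eligible bins, met the range in 3 libraries and 40551, or 3.38%, in 2. Mean levels of the members were 50.4, 50.4, 50.7 and 50.5%, and those of eligible bins 72.6, 72.5, 72.8 and 72.3%. The median eligible bin stood at 85.7, 85.6, 86.3 and 85.7%. The range of a member over the 4 libraries had a median of 9.67 points, from 0.553 to the 20 that the rule allows.

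Many members lay close to the limits of the rule. A level within 2 points of a limit in at least 1 library was found in 7182 members, whose lowest library had a median of 42.8% and whose highest had 58.4%. Another 8405 eligible bins missed the rule by at most 2 points, with medians of 42.9% for the lowest library and 60.5% for the highest. When every bin was thinned at random to 40 calls per library, 12242 bins met the rule, and 6694 of them were members at full depth, which is 54.7% of the thinned set and 45.01% of the members. Single bins were kept in 44.9% of cases and bins in runs of at least 2 in 46.4%. Thinning adds counting error of its own to bins with several times 40 calls, so these shares do not measure how many members owe their place to it at full depth, which was not tested.

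The longest run, of 5 bins, lay in Trappc9, which encodes a subunit of a vesicle trafficking complex. It occupied a CGI in intron 16 of the 22-exon transcript (chr15:72640001-72641000), the host gene of the imprinted non-coding RNA Peg13, which the annotation used here does not list. Its levels were 52.8, 52.8, 46.8 and 46.0% from 1417, 3429, 1442 and 2712 calls, with intervals of 50.2 to 55.4%, 51.1 to 54.5%, 44.2 to 49.4% and 44.1 to 47.9%. The rule used these levels, and no order of the libraries is read from them. All 58 CpGs of the run had summed levels from 40.7 to 60.2%, and 3 of its 5 bins held TGCCGC. A sixth member lay 400 bp to the left of its first bin, and farther than 2000 bp from the centre of the run most measured bins were over 80%.

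The second run, of 4 bins, spanned the shared 5' ends of Sgce (epsilon-sarcoglycan, a membrane protein) and Peg10 (a retrotransposon-derived gene needed in placenta), covering exon 1 of both (chr6:4696601-4697400). Levels were 53.3, 53.1, 51.9 and 43.9% from 593 to 1139 calls. All 41 of its CpGs lay between 40.3 and 60.5%. Levels near the middle went on past the run, so that its flanks, the nearest 5 bins on each side with calls summed, stood at 64.1 and 57.1%.

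The third, also of 4 bins, was in no window of a listed imprinted gene. It lay in intron 1 of Col8a2, an extracellular matrix collagen chain, in a CGI shore, the 2000 bp beside a CGI (chr4:125965201-125966000). Levels were 52.9, 51.9, 48.1 and 47.9% from 482 to 1075 calls, and 20 of 22 CpGs lay from 30 to 70%. To the left the summed level of the 5 nearest bins was 13.7% and to the right 60.6%, so that the run sat on a slope between unmethylated and methylated sequence.

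**Figure D1:**
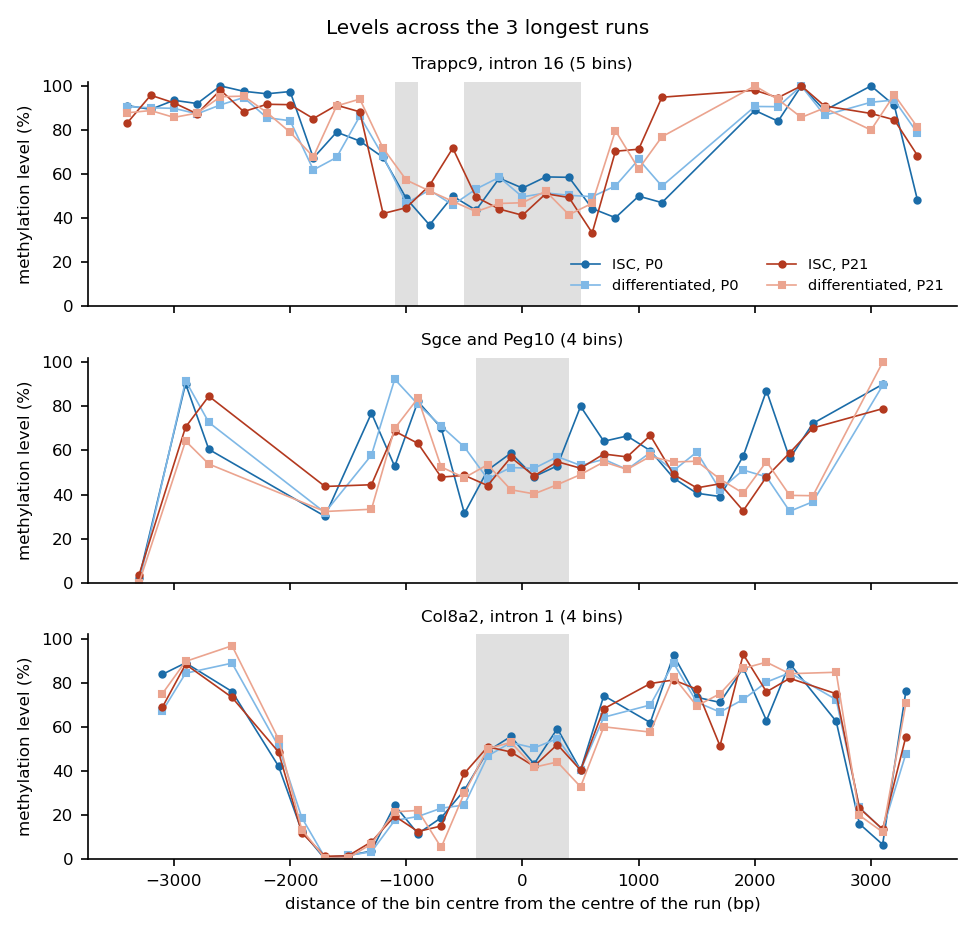
Methylation level (%) of 200-bp bins against distance (bp) from the centre of each of the 3 longest runs, with 1 line per library and member bins shaded. Levels stay near the middle over more than 1000 bp at Trappc9 and at Sgce and Peg10, where the runs' flanks stand at 54.1 and 52.7% and 64.1 and 57.1%, and rise from 13.7% on the left to 60.6% on the right of the Col8a2 run.

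A larger share of bins were members in windows of gametic DMR genes than over all eligible bins. Windows were each gene with 5000 bp on both sides, with more upstream for H19 (10000 bp), Meg3 (20000 bp) and Rasgrf1 (40000 bp), whose gametic DMRs are known to lie before the gene. The extents of the gametic DMRs themselves were not used, so a member in a window need not lie in the gametic DMR. Of 28 genes listed for gametic DMRs, 26 were found in the annotation, 20 of these held a member and 10 a run of at least 2 bins. Peg10 and Sgce, Igf2r and Airn, Nespas and Gnas, and Mcts2 and H13 each share their longest run, so the 20 genes are 16 distinct loci, of which 8 had a run of at least 2 bins. In their windows 75 of 1633 eligible bins, or 4.59% (3.68 to 5.72%), were members, against 1.24% of all eligible bins. The share rose with CpG count, from 2.72% in bins of 4 to 5 CpGs to 5.62% in bins of 6 to 9 and 11.7% (7.76 to 17.2%) in bins of 10 or more. Over all eligible bins it fell in the same classes, from 1.34 to 1.25 and 0.484%. A further 104 bins in these windows, or 6.37%, were from 40 to 60% in 3 libraries. Windows of 49 other imprinted genes gave 41 of 2413 bins or 1.70% (1.25 to 2.30%). Of these bins, 55 with 4 members also lay in gametic DMR windows, the members being those that Zrsr1 shares with its host gene Commd1, and without them the share was 37 of 2358 or 1.57% (1.14 to 2.16%). The gametic DMR of Kcnq1ot1, a non-coding RNA not found in the annotation, could enter only through the window of Kcnq1, which held 1 member, so this list is not free of gametic DMR sequence.

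Between the genes, Gnas, which encodes the stimulatory G protein alpha subunit, and its antisense transcript Nespas shared the most members, 17 in either window and in 15 runs. The longest of these (chr2:174124401-174124800) gave 56.2, 47.6, 47.2 and 55.9%, and its 26 CpGs ranged from 40.7 to 56.7%. It overlapped exon 1 of the Gnas transcript with the longest coding sequence, 14580 bp downstream of the annotated gene start. Mest, a maternally methylated gene for a hydrolase-like protein, had 9 members, and its longest run (chr6:30686801-30687200) gave 54.5, 48.5, 50.2 and 52.6%. Rasgrf1, a guanine nucleotide exchange factor gene methylated on the paternal copy, had 6, and the run 28013 bp upstream of the gene (chr9:89776201-89776600) gave 50.7, 49.8, 51.3 and 50.4%. Intron 1 of Impact, a translation regulator, held a run with 45.4, 46.3, 45.7 and 46.0%. The Snrpn run (chr7:67149801-67150200) in intron 2 of this splicing protein gene gave 43.3, 52.1, 59.1 and 46.6% from 238 to 616 calls. The rule held all these levels from 40 to 60%, so neither likeness nor spread between the libraries is read from them.

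Zrsr1, a retrotransposed gene inside intron 2 of Commd1, held a run of 3 bins (chr11:22873201-22873800) with 50.9, 45.2, 45.6 and 47.6% and all 27 CpGs from 33.3 to 62.5%. The member at exon 1 of Peg3, a zinc finger gene, had 15 CpGs and levels of 53.2, 42.9, 55.5 and 42.2%. Another member was in the Peg3 window, and 10 more bins there met the range in 3 libraries. In intron 2 of Igf2r, which encodes the receptor that clears IGF2, and within the non-coding RNA Airn, the bin printed above gave 51.5, 56.5, 49.6 and 42.3%. The H19 bin, 3553 bp upstream of the start of this non-coding RNA gene, gave 44.2, 47.4, 41.7 and 51.8%. Upstream of Meg3, another non-coding RNA gene, a bin 211 bp before the gene gave 41.8, 48.3, 42.5 and 48.8%. It was the only member in the Meg3 window, and whether it lies in the gametic DMR was not tested. Grb10 (a growth factor receptor adaptor) had 1 member in intron 1, and Mcts2, a retrogene within intron 4 of H13, had 1 member in its exon.

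Not every listed gene had a member whose CpGs were alike. The single members of Slc38a4, an amino acid transporter gene, and Gpr1, a chemerin receptor gene, lay in introns outside any CGI, each with 1 flank over 70% and the other under 30%. Their CpGs spread from 24.1 to 64.5% and from 16.6 to 76.1%. Plagl1, Nap1l5, Usp29, Inpp5f, Cdh15 and Nnat had no member. Among these, 5 bins of Inpp5f, 3 of Cdh15 and 2 of Plagl1 were in the range in 3 libraries, and none of the 10, 7 and 25 eligible bins of Nap1l5, Usp29 and Nnat were.

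**Figure D2:**
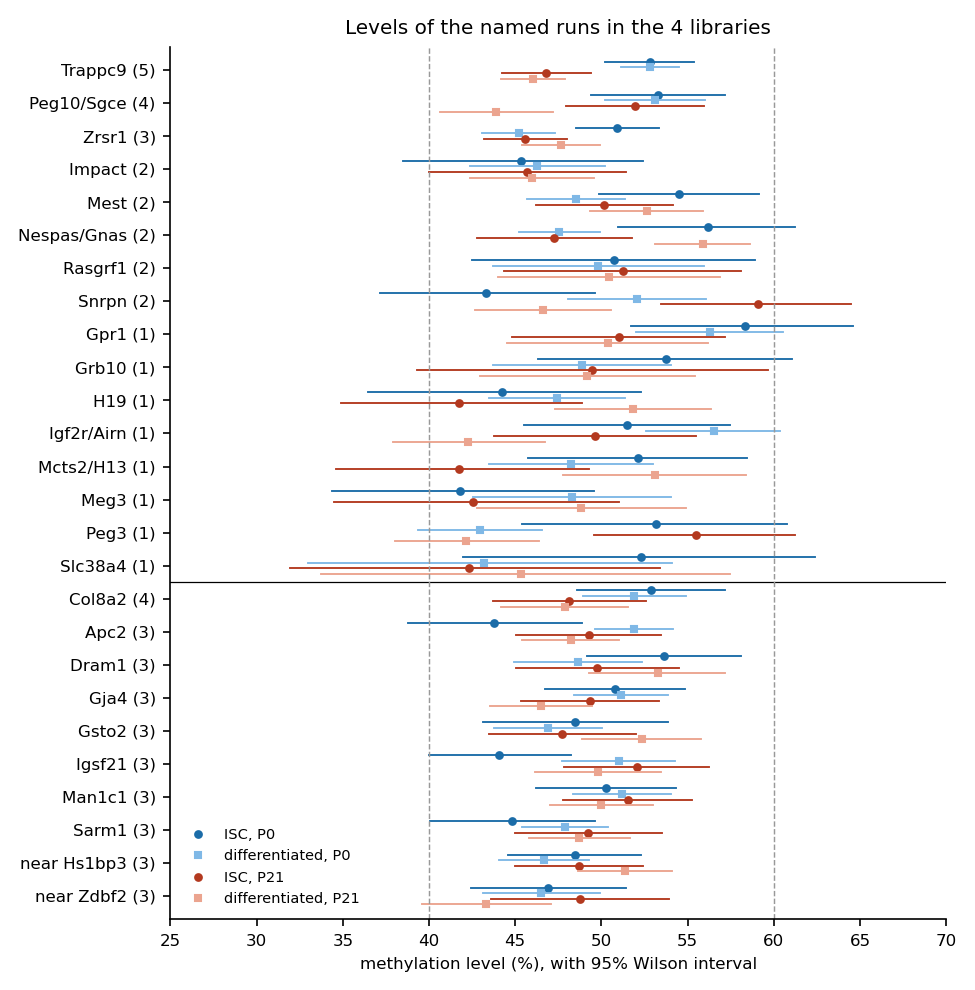
Methylation level (%) with 95% Wilson interval in the 4 libraries, for the longest run of each gametic DMR gene with a member (above the line) and the 10 longest runs outside imprinted windows (below it). Numbers in parentheses are bins in the run, dashed lines are the limits of the rule at 40 and 60%, and the levels run from 49.8 to 51.3% at Rasgrf1 and from 43.3 to 59.1% at Snrpn.

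Single CpGs spread less within members of gametic DMR windows than within other members. The rule used sums over a bin, so a member can hold CpGs that are all near the middle or a blend of high and low ones. A bin was called even when all its CpGs with 10 or more calls lay from 30 to 70%, and mixed when it had both a CpG at 80% or more and another at 20% or less. Of 14869 members with enough calls, 15.2% (14.6 to 15.8%) were even and 21.7% mixed. Among members in gametic DMR windows, 59 of 75, or 78.7% (68.1 to 86.4%), were even and 6.67% mixed, although these bins had more CpGs that could break the rule. Of their 617 CpGs 94.5% were from 30 to 70%, against 61.4% of 78759 CpGs in members outside imprinted windows. Members in windows of the other imprinted genes alone were even in 8 of 37 cases, or 21.6% (11.4 to 37.2%), an interval that holds the share of all members. With at least 10 CpGs, 21 of 21 members in gametic DMR windows were even, and 67 of all 510 such members.

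The share of even bins differed by run length. Single-bin members were even in 14.7% of cases, those in runs of at least 2 bins in 25.2% (22.1 to 28.5%) and those in runs of at least 3 in 38.8% (28.0 to 50.8%), with 26 of 67 bins. The 3 imprinted runs among the last gave 12 of these 26, and outside imprinted windows 14 of 55 bins, or 25.5% (15.8 to 38.3%), were even. Mixed bins went the other way, at 22.2, 12.9 and 5.97%. Of the 21 runs with at least 3 bins, 3 lay in imprinted windows, as did 14 of 345 runs with at least 2 and 92 of all 14502, or 0.634%. Non-member bins whose summed level was from 40 to 60% were even in 14.95% (14.6 to 15.3%) of cases against 15.2% of members, and mixed in 15.6% (15.2 to 15.9%) against 21.7% (21.1 to 22.4%).

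The pattern of high and low CpGs within a member was shared by the libraries. Deviations of 69286 CpGs from the mean of their bin correlated across CpGs with Pearson's r from 0.804 (ISCs at P0 and ISCs at P21) to 0.858 (both differentiated libraries). CpGs of 1 bin share reads and are not independent replicates, and the same reference positions enter all libraries. On the 11546 members with at least 40 calls on each strand, the forward less the reverse level had a median of -0.0271 points, with quartiles of -7.82 and 7.91, and 12.2% differed by over 20 points.

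**Figure D3:**
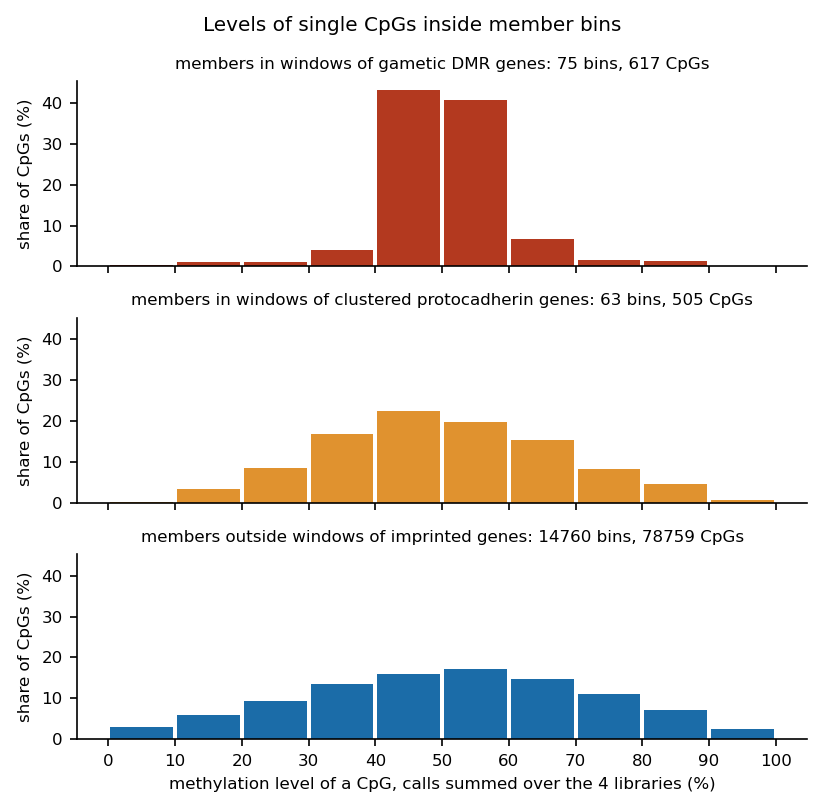
Share of CpGs (%) by methylation level of the CpG (%, calls summed over the 4 libraries, classes of 10 points) in members of gametic DMR windows, of clustered protocadherin windows and outside imprinted windows, the last of which includes the protocadherins. In gametic DMR windows 43.1% of CpGs are from 40 to 50% and 40.8% from 50 to 60%, while outside imprinted windows these classes hold 16.03 and 17.04%.

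Of the 10 longest runs outside imprinted windows, 8 lay within a gene span and 2 did not. Exon 15, the last exon of Apc2, a homolog of the Wnt pathway gene Apc, held 3 bins of a CGI (chr10:79775801-79776400) with 43.8, 51.9, 49.3 and 48.2%. Its CpGs ranged from 19.4 to 75.2%, and 31 of 35 were from 30 to 70%. Gja4, which encodes a gap junction protein of blood vessels, had 3 CGI bins in exon 2 (chr4:126989601-126990200) with 50.8, 51.1, 49.3 and 46.5%, next to a right flank of 10.4%. At exon 5 of Sarm1, an NAD-cleaving enzyme known from axon degeneration, the run (chr11:78300401-78301000) gave 44.8, 47.9, 49.2 and 48.7%, between flanks of 87.5 and 13.9%.

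Introns held the runs of Man1c1, a Golgi mannosidase gene, and Igsf21, an immunoglobulin superfamily gene. The former (intron 2, chr4:134189601-134190200) gave 50.3, 51.2, 51.5 and 50%, and its CpGs ranged from 12.3 to 85.3%. The latter (intron 3, chr4:139626801-139627400) gave 44.1, 51.0, 52.0 and 49.8%. Gsto2, a glutathione transferase gene, had a run over exons 4 and 5 (chr19:47946201-47946800) with CpGs from 12.6 to 96.7% and levels of 48.5, 46.9, 47.7 and 52.3%. A run within the span of Dram1, a lysosomal membrane protein gene (chr10:87837601-87838200), gave 53.7, 48.6, 49.8 and 53.3%. Another, 1839 bp from Hs1bp3 (chr12:8317801-8318400), gave 48.4, 46.7, 48.7 and 51.4%.

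The run nearest to Zdbf2, itself an imprinted gene, lay 13039 bp from it (chr1:63306201-63306800), which is outside the 5000-bp window and so counts here as outside. It gave 46.9, 46.5, 48.7 and 43.3%, with 15 of 16 CpGs from 30 to 70%, and its flanks were 46.0 and 48.8%. When members at most 1000 bp apart were joined, a step added after the data were seen, this place held 6 members over 33 CpGs. Also outside imprinted windows, the cluster at Apc2 (chr10:79775801-79777600) held 6 over 52 CpGs and 1 at Pcdha11 held 5 over 44. Of 16 such clusters with at least 4 members, 7 were in imprinted windows, against 72 of all 14154 clusters (0.509%), and 3 of the 7 lay at Nespas and Gnas, where the largest held 7 members (chr2:174108801-174112800).

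Clustered protocadherins, neuronal adhesion genes whose alternative promoters are chosen cell by cell in neurons, had a larger share of members than the gametic DMR windows, with another pattern of CpGs. In their windows 63 of 706 eligible bins, or 8.92% (7.04 to 11.3%), were members, and 17 of 25 genes had a run. Windows of these genes can overlap, so a run can count for several genes. CGIs cover 47.5% of the eligible bins there, against 9.99% of all. Mean member levels were 49.1, 48.5, 52.1 and 51.5%, within the bounds of the rule. Of these 63 members 11, or 17.5% (10.04 to 28.6%), were even and 12.7% mixed, against 21.8% mixed in members outside imprinted windows. From 30 to 70% lay 74.9% of their 505 CpGs, against 61.4% of CpGs in members outside imprinted windows. Bins with more CpGs have more that could break the even rule, and CpG count was not matched here. Genes known for germ cell expression and promoter methylation had 12 members of 560 eligible bins, or 2.14% (1.23 to 3.71%), an interval that reaches the 1.24% of all eligible bins, and no run of 2.

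A smaller share of members than of eligible bins lay in CpG islands. A CGI was taken as a region where 500 bp hold at least 25 CpGs. Of the members 3.97% (3.67 to 4.29%) were in a CGI against 9.99% of eligible bins, while 11% (10.5 to 11.5%) were in a shore against 7.96%. In runs of at least 3 bins, 16 of 67 bins (23.9%) were in a CGI and 18 (26.9%) in a shore. The 3 imprinted runs gave 10 of these 16 CGI bins, and outside imprinted windows 6 of 55, or 10.9% (5.10 to 21.8%), were in a CGI. Bins with 15 or more CpGs were members in 0.228% of cases and bins with 5 CpGs in 1.37%. Median CpG count was 5 in members and in eligible bins, the median GC content 51.5 against 50% and the observed to expected CpG ratio 0.400 against 0.436. The TGCCGC motif, searched on both strands, was in 5.05% (4.71 to 5.41%) of members and 5.80% of eligible bins. At equal CpG count the shares lay closer, at 3.51 and 3.73% for 4 to 5 CpGs, 7.40 and 7.30% for 6 to 9, and 15.5 and 15.5% for 10 or more.

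By gene position, 4.14% (3.83 to 4.47%) of members were in the 5' region of a protein-coding gene, from 1000 bp upstream through the first exon, compared with 5.46% of eligible bins. With at most 300 calls per library the order turned, at 3.57 and 2.92%. The 3' end, or last exon, had 2.79 and 3.09%, the rest of the gene body 41.0 and 44.6%, and sequence outside these transcripts 52.0 and 46.8%. CGIs in 5' regions were the least likely to be members, with 137 of 42656 bins or 0.321%, whereas 5' bins outside CGIs reached 2.10% (1.92 to 2.29%). At the 3' end the order turned, with 1.63% (1.30 to 2.03%) of CGI bins and 1.05% (0.943 to 1.17%) of other bins. Shares ranged over the autosomes from 0.991% on chromosome 3 to 1.42% on chromosome 4.

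**Figure D4:**
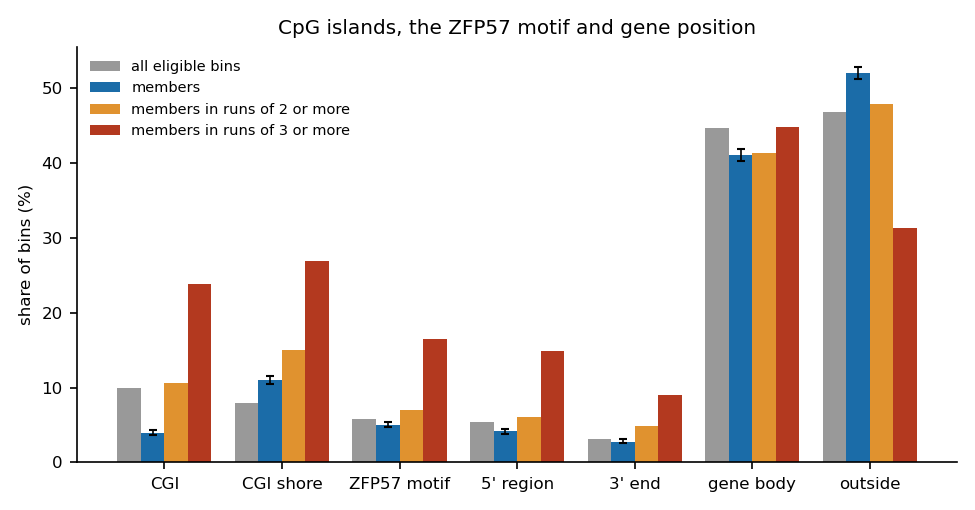
Share of bins (%) in a CGI, in a CGI shore, with the ZFP57 motif and in each gene position of the longest coding transcript (outside, in none), for all eligible bins, members (error bars, 95% Wilson interval) and members in runs of at least 2 and at least 3 bins. CGI bins make up 9.99% of eligible bins, 3.97% of members and 23.9% of the 67 bins in runs of at least 3.

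Runs differed in the sequence around them. The level of the 5 nearest bins on each side, with calls summed, could be read for 14437 runs and had a median of 73.3%. Both flanks were over 70% for 31.4% (30.7 to 32.2%) of runs, and 3.57% of these runs touched a shore. In 12.3% 1 flank was over 70% and the other under 30%, and of these 32.9% touched a shore and 14.4% a 5' region. Both flanks were under 30% in 0.803%, or 116 runs, and the remaining 55.4% had some flank between. Runs of at least 2 bins had both flanks high in 27.3% (22.9 to 32.3%) and fell in the last class in 63.1% (57.9 to 68.0%).

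**Figure D5:**
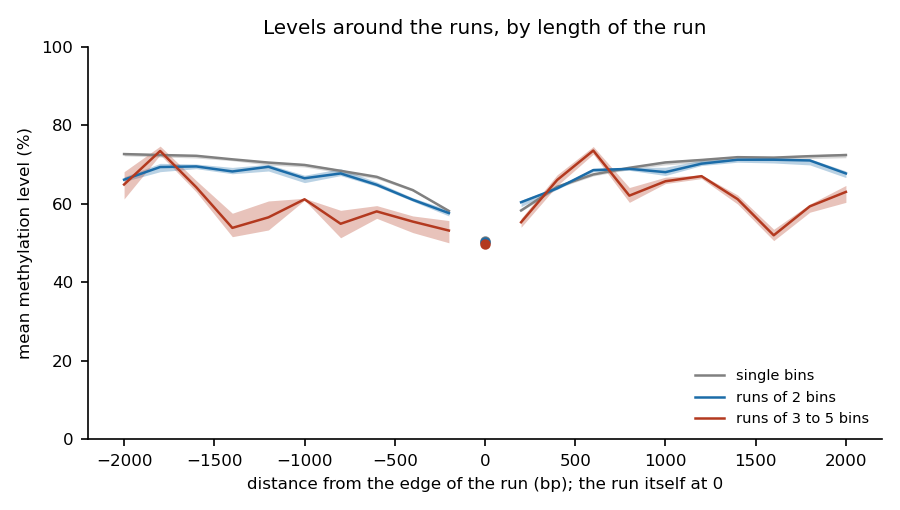
Mean methylation level (%) of bins against distance (bp) from the edge of the run, for single bins, runs of 2 bins and runs of 3 to 5 bins, with the shaded range over the 4 libraries and the run itself at 0. Next to single bins the ISC P0 mean is 58.1% at 200 bp and 73.1% at 2000 bp to the left, and around the 21 longest runs it moves between 50.1 and 74.7% over few bins.

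Sequence near the members was read for differences between libraries. Its bins were not members, but the rule shaped them, since it took out every bin from 40 to 60% in all libraries and placed the rest beside bins held within 20 points. Calls needed a difference of over 15 points and an adjusted p below 0.05 (Fisher's exact test, two-sided, Benjamini-Hochberg over all eligible bins), and each test compares a pair of libraries, not conditions. From P0 to P21 (maturation-associated DMRs, mDMRs) 5.89% (5.65 to 6.14%) of 35106 non-member bins within 1000 bp of a member were called in ISCs, with 4.6% of all eligible bins as background. In differentiated cells 5.13% (4.91 to 5.37%) were called, with a background of 4.38%. Between ISCs and differentiated cells (differentiation-associated DMRs, dDMRs) 1.64% (1.51 to 1.78%) were called at P0 and 0.929% (0.834 to 1.03%) at P21, with backgrounds of 1.08 and 0.528%. Members themselves were called 96, 159, 34 and 8 times in these comparisons, counts that the rule bounds by holding each difference to 20 points.

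The share called near members differed by level. Among bins with a summed level from 40 to 60%, 18.01% (16.7 to 19.4%) of those near a member were ISC mDMRs, and 27.9% of the others. From 20 to 40% the shares were 14.4% (13.2 to 15.6%) and 25.9%. From 0 to 20% they were 2.58 and 3.17%, and from 60 to 80% they were 7.61 and 9.57%. Only from 80 to 100% was the share near members higher, at 1.40% (1.22 to 1.61%) against 1.08%. For mDMRs in differentiated cells it was also lower near members in each class below 80%, with 16.9 against 28.4% from 40 to 60%. From 80 to 100% these shares were 0.840 and 0.812%. The higher mDMR shares near members over all levels thus turned round in every class below 80%. For dDMRs from 40 to 60% the shares near members and elsewhere were 5.11% (4.41 to 5.91%) and 5.17% at P0, and 3.38% (2.82 to 4.06%) and 3.05% at P21. From 20 to 40% at P0 they were 3.15% (2.61 to 3.80%) and 4.50%. From 80 to 100% at P21 they were 0.265% (0.192 to 0.367%) and 0.188%. In the remaining classes the dDMR share elsewhere lay within the interval of the share near members. These differences were not tested, and reads that span a member and its neighbour enter both.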

How the data were processed

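Bisulfite-converted DNA had been amplified by PCR and read from both ends in 4 libraries, 1 per group. According to the submitters' processing notes and the methods, reads were mapped to mm9 with Bismark and Bowtie. Versions and any removal of duplicates were not stated in the sources used here. The authors deposited, for each CpG cytosine of either strand, the count of all calls and the count of methylated calls, and a fraction that was not used. Positions were checked against the NCBIM37 reference, and the 0.469 to 0.860% of autosomal positions at no CpG were left out. Both strands were summed in bins of 200 bp, and a level is methylated calls in percent of all calls.

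Groups came from the labels. Gene positions came from GENCODE M1, using for each of 21418 protein-coding genes the transcript with the longest coding sequence, and 5' regions took precedence over 3' ends and gene bodies. Bins were CGI when at least 100 bp lay in 1 of 29744 regions. Named runs were the 10 with the most bins, the 10 with the most bins outside windows of listed imprinted genes, and the longest of each gametic DMR gene, with ties going to more calls. Members, gene lists and tests were chosen with earlier results of these data known. Fisher's exact test was tested on simulated data. Alternatives were other minima and maxima of calls, CpG minima, windows, libraries left out, shifted bins, thinned calls, and other definitions of CGI, evenness, neighbours and runs. Merging of members within 1000 bp, and the rule with no maximum of calls, were added after the data were seen. Python 3.11.15, numpy 2.4.6, scipy 1.17.1, pandas 2.3.3, numba 0.67.0 and matplotlib were used.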

Additional observations from a re-analysis of the deposited data

How the results depend on the processing

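No paired analysis was made, as each group had 1 library and the labels give no replicate numbers shared by separate samples. ISCs and differentiated cells of an age may have come from the same pooled mice. Of 123 values under 25 other settings, 74 stayed within 1.5 times the count or within the interval of the share. With a window of 35 to 65% there were 39883 members in 37808 runs, 13.1% even, and 6.46% of neighbours were ISC mDMRs. With 45 to 55% there were 1713 in 1708 runs, 8 gametic DMR genes, 4.55% in a 5' region, 16.4% even and 5.05% of neighbours called. A minimum of 2 CpGs gave 29258 members in 28382 runs, with 2.19% CGI, 3.199% 5' region and 3.23% TGCCGC (5.43, 3.55 and 3.93% of eligible bins at that minimum), 21.0% even and 4.72% of neighbours called. A minimum of 8 CpGs gave 1487 in 1452 runs, with 23.9% CGI, 9.35% 5' region and 11.6% TGCCGC (49.5, 20.1 and 12.9% of eligible bins at that minimum), 9.95% even and 8.26% of neighbours called. A maximum of 300 calls gave 1.93% CGI, 3.57% 5' region and 4.12% TGCCGC (4.45, 2.92 and 4.59% of its eligible bins) and 15.9% even, so that the 5' share was above the background there, and below it in the main set and at both CpG minimums. A minimum of 20 calls moved the called neighbours to 5.501%, and a minimum of 80 to 6.33%, with 4.92% CGI (12.9% of its eligible bins). Thinning to 40 calls gave 3.55% CGI, 3.77% 5' region, 13.997% even and 6.22% of neighbours called. The rule without ISCs at P0 gave 22475 members. Without differentiated cells at P0 14.1% were even, without ISCs at P21 6.39% of neighbours were called, and without differentiated cells at P21 the values were 14.4% and 6.21%. CGIs of at least 35 CpGs held 1.15% of members (5.28% of eligible bins), and CGIs by sequence 2.31% (6.80%). Of the gametic DMR genes, 10 had runs of at least 2 bins. Limits of 25 and 75% made 27.9% of members even. Calls by 15 points without a test took in 10.1% of neighbours (7.44% of all eligible bins), and neighbours within 400 bp were called in 6.71%. TGCCGC was in 3.51, 7.40 and 15.5% of members with 4 to 5, 6 to 9 and 10 or more CpGs. Number of members and share even thus depend on the window and the CpG minimum, which by construction admit other bins. The share in a CGI moved with the CpG minimum but stayed within its interval under both other windows. The causes of the other shifts were not tested. Where a setting changed which bins were eligible or their calls, the share of all eligible bins called was not computed. The called neighbours under those settings can therefore not be read against the 4.6% of the main set.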

Other observations

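Dense and even members made up a short list. Of 243 members with at least 12 CpGs, 39 had all CpGs from 30 to 70%, and 16 of these lay in imprinted windows, all of gametic DMR genes. That is 41.0% (27.1 to 56.6%) of the even ones, while imprinted windows held 6.58% of the 243. With at least 8 CpGs the share was 25% (18.7 to 32.5%) of 148 even members. The limit of 12 CpGs and the places named next were chosen after the values were seen.

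The other 23 bins lay outside imprinted windows, 21 of them in a CGI, 12 outside coding transcripts (11 of them outside every gene span) and 1 in a 5' region. Of these bins 20 stood alone and 3 belonged to longer runs. In 9 of them over 80% of the calls came from 1 strand. The bin in the 5' region of Spaca1, a sperm acrosome protein gene (chr4:34137001-34137200, 14 CpGs), had 50.7, 52.1, 50.5 and 55.6% in the order of libraries used above, with CpGs from 32.4 to 67.7%. A bin in the body of Sycp1, a synaptonemal complex gene of meiosis (chr3:102670201-102670400, 14 CpGs), had 43.5, 54.2, 45.7 and 56.2%. At a distance of 5378 bp from Bmf, a gene for a cell death regulator (chr2:118380801-118381000, 13 CpGs), the levels were 51.4, 55.3, 52.0 and 48.7%, and the flanks 45.6 and 53.8%.

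The annotated span of Gm20388 on chromosome 8 is 4435 kb long and held 126 runs in 7079 eligible bins, or 1.78 per 100. Gene body was taken from its transcript with the longest coding sequence, whose extent was not read. Bins counted there as gene body can include sequence between other genes.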
